A study of Mus musculus with 2 samples.

Results

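Non-cycling arterial endothelial cells of the mouse embryo are described here from single-cell RNA sequencing of sorted CD31+CD44+ cells. They were chosen by the molecules counted in each cell. CPM is the count of unique molecular identifiers (UMIs) of a gene per 1000000 UMIs of the cell or of the summed cells. A chosen cell had at least 100 CPM of Cdh5 (VE-cadherin), at least 200 CPM of the arterial connexin Gja5 and less than 500 CPM of the macrophage genes C1qa, C1qb and C1qc together. It lacked a UMI of Gfi1 or of Neurl3, 2 genes of the endothelial to hematopoietic transition (EHT). It held at least as many UMIs of the arterial genes Tmem100, Htra1 and Ltbp4 as of the plexus genes Kitl, Esm1, Igfbp3 and Vwa1, and less than 200 CPM of the cycling genes Mki67, Top2a and Cenpf. Of 2139 deposited cells, 833 passed the Cdh5 and C1q limits, and 189 passed all of them.

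The cells came from the caudal part of embryos at embryonic day 10 on a C57BL/6 background. The conditional knockout (cKO) embryos were Vec-Cre;Nupr1 fl/fl, in which a Cdh5-cre transgene acts in endothelial cells, and the littermate controls were Nupr1 fl/fl and Nupr1 fl/+. Cells of both genotypes carried different hashtags and were pooled in 1 lane for each of 2 replicates, and the number of embryos of each genotype in a pool is not given in the sources used here. The chosen cells numbered 54 in control replicate 1, 48 in control replicate 2, 30 in cKO replicate 1 and 57 in cKO replicate 2. Values below follow this order. UMIs were summed over the chosen cells of each genotype and replicate, which gave 4 sums of 1068056, 1194317, 644668 and 1317133 UMIs. Single cells had a median of 21772 UMIs (range 2764 to 60730). The pools shared 0 cell barcodes.

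Arterial endothelium lines the vessels that leave the heart and carries the highest flow and pressure. Its fate is set by VEGF and Notch signaling and by SoxF factors, and it expresses connexins, Notch targets and elastic matrix that venous and capillary endothelium have at low levels. In the dorsal aorta at midgestation, some arterial cells become hemogenic endothelium, which expresses Runx1 and Gfi1 and releases blood stem and progenitor cells through EHT. Arterial cells also tend to leave the cell cycle as they mature.

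Nupr1 encodes a small chromatin-binding stress protein, and it was the deleted gene. The chosen cells held 5, 18, 0 and 1 Nupr1 UMIs, or 4.68, 15.1, 0 and 0.759 CPM, so both control sums lay above both cKO sums. The ratio of control to cKO UMIs per UMI sequenced was 19.9, with an exact 95% interval from 3.24 to 822 for counting error only. The interval takes UMIs as independent, although the 18 of control replicate 2 lay in 3 cells, so it is too narrow. The gene was too low for the filter of the genotype comparison, so it was fitted without that filter over 13738 genes. The log2 fold change was -4.01 (SE 1.01), which did not pass the threshold (adjusted p = 0.243 in edgeR, n = 2 sums per genotype). With the replicate as a block it was -4.21 (SE 0.993) and passed (adjusted p = 0.0254 in edgeR). Leaving out the cells with 2 or more UMIs of the blood genes Ptprc, Mpo, Pf4 and Itga2b, which kept 52, 24, 28 and 26 cells, moved it to -1.56 (adjusted p = 0.999 in edgeR). Nupr1 was found in 5 of 54, 3 of 48, 0 of 30 and 1 of 57 cells, and the 0 of 30 allows a share of up to 10%.

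Among 6 markers of arterial endothelium, Gja5, Tmem100, Htra1 and Ltbp4 belong to the rule, so their presence is no check of the cell type. Pi16 and Vwf do not belong to it, and they were found in 70.4% and 99.5% of the chosen cells. Vwf was also common in other endothelial cells, as given below. All 6 were found together in 100 cells, 5 in 61 cells, 4 in 20 and 3 in 8, and no cell had fewer. Gja5 lay between 210 and 2822 CPM in single cells. The cells just inside and outside its limit had 210 and 189 CPM, with 2 cells inside and 4 outside within a factor of 1.5. The limit on cycling genes ran through a more densely filled range, with 192 CPM just inside, 200 just outside, and 8 and 15 cells within that factor.

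The genes that mark the cells are shown by position and by the bases before their start. RefSeq places Gja5 (gene 14613) on chromosome 3 of GRCm38.p6 from 97032402 to 97053634, Htra1 (56213) on chromosome 7 from 130936203 to 130985658, Tmem100 (67888) on chromosome 11 from 90030348 to 90036508 and Vwf (22371) on chromosome 6 from 125552948 to 125686679. The 250 bases before the start were searched on both strands for the core letters of 4 factor families of arterial endothelium. These were ACAAT or ATTGT for Sox factors, TGGGAA or TTCCCA for the Notch effector RBPJ, CACCC or GGGTG for flow-induced Klf factors and CCGGAA or TTCCGG for ETS factors. Of 32851 such stretches in RefSeq, 27.7% held the first, 21.6% the second, 52.0% the third and 12% the fourth. Those of 4 arterial genes are printed 5′ to 3′ on the strand of the gene, with matches in capitals, because these genes, 2 connexins, a Notch target and a gene of the rule, lay above EHT cells in every sum. The stretches are Gja5 at chr3:97032152-97032401 on the plus strand, Htra1 at chr7:130935953-130936202 on the plus strand, Gja4 at chr4:127314040-127314289 on the minus strand and Hey2 at chr10:30842784-30843033 on the minus strand. Gja5 had 4 Klf matches, Htra1 had 2, Gja4 had 1 Sox match and Hey2 had 1 RBPJ match. A match describes the letters only.
Gja5: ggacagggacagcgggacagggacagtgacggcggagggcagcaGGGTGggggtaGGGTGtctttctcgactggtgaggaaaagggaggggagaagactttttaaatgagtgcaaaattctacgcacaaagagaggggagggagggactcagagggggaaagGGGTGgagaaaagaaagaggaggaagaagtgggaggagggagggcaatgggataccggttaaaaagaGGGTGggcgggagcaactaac
Htra1: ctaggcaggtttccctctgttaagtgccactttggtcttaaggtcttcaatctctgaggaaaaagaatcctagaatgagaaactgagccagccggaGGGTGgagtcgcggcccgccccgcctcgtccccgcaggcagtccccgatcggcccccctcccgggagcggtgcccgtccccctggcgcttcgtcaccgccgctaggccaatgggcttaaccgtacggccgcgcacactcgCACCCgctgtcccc
Gja4: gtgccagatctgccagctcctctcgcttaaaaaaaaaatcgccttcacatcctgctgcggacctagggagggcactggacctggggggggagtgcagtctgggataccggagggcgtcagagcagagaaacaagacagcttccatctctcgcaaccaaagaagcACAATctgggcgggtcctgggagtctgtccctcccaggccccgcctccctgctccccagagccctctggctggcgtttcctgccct
Hey2: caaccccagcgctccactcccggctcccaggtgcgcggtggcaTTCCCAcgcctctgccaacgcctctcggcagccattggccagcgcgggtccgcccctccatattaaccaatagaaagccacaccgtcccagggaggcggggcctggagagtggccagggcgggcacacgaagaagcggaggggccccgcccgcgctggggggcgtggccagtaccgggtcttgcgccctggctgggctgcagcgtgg

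To place these cells, the other Cdh5 cells were divided by the same genes. EHT cells (191) had UMIs of both Gfi1 and Neurl3. Plexus cells (329) had more plexus than arterial UMIs, and cycling arterial cells (84) differed from the chosen ones by the cycling limit only. The remaining 40 cells were below the Gja5 limit. Because the rule divided these very cells, every difference between classes is a description and was not tested. A gene is called above or below another class where its 4 sums did not overlap with those of that class. Of all genes tested, 14.5% lay above and 12.8% below the plexus sums (8183 genes), 24.1% above and 20.3% below the EHT sums (8334 genes), and 3.42% above and 8.25% below the cycling arterial sums (8190 genes). Ratios are medians over the 4 sums of log2 CPM with 1 added. Median depth was 21772 UMIs in the chosen cells, 28094.5 in cycling arterial, 34369 in plexus and 51245 in EHT cells, and its part was tested for the 6 markers only. After each cell was thinned to 6000 UMIs, the Gja5 ratio to plexus cells went from 1.46 to 0.89, that of Tmem100 to EHT cells from 3.94 to 5.08, and all marker ratios to both classes stayed positive.

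The chosen cells lay above plexus and EHT cells for every marker. Gja5, the connexin of arterial gap junctions, had 1297, 962, 1629 and 943 CPM, against 199 to 447 in plexus and 98.8 to 214 in EHT cells. Vwf, the platelet-binding clotting protein that endothelium stores, had 820, 617, 813 and 910 CPM, against 64.9 to 208 and 125 to 174. Both sets of values left a wide gap to the other classes. Tmem100, a membrane protein induced by BMP signaling through Acvrl1, had 411, 494, 343 and 531 CPM, against 27.6 to 79.4 in plexus and 15.2 to 40 in EHT cells. Htra1, a secreted serine protease, had 253, 211, 197 and 328 CPM, a log2 ratio of 3.89 to plexus and 3.44 to EHT cells. Pi16, a secreted protein that the rule did not use, had 98.3, 97.1, 130 and 121 CPM, with ratios of 3.28 and 3.23. Without cells with blood genes these were 2.55 and 2.13, and after thinning 2.92 and 2.43. Ltbp4, which binds latent TGF-beta in elastic fibers, had 126, 140, 101 and 215 CPM, with ratios of 2.67 and 3.49. Against cycling arterial cells the 6 ratios lay between 0.09 and 0.37, and the sums overlapped.

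**Figure D1:**
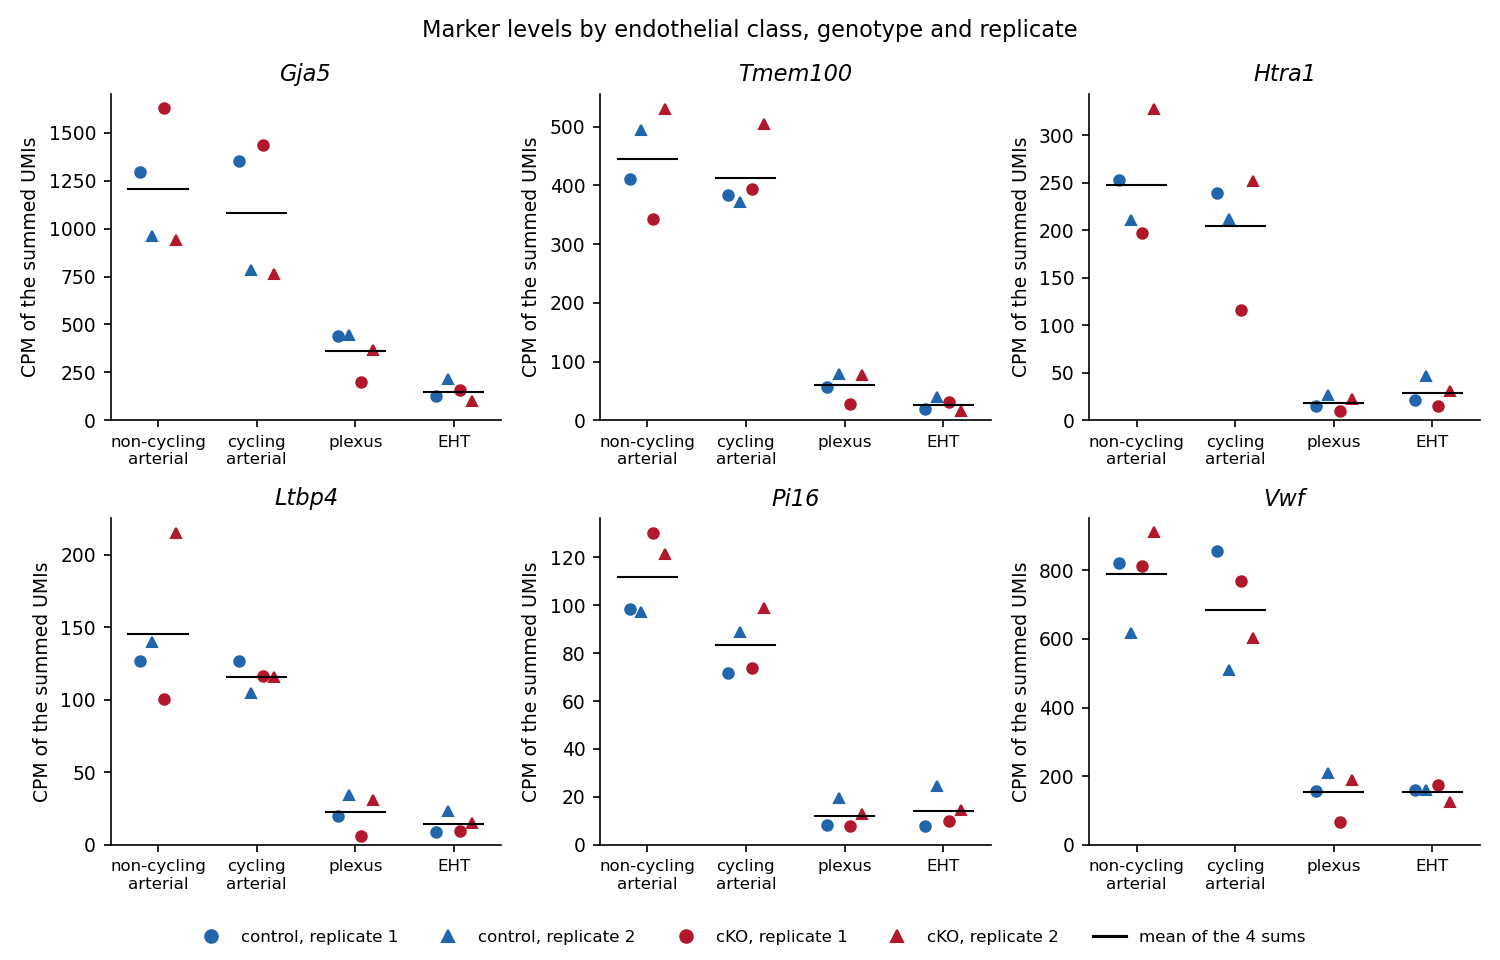
Level of the 6 marker genes (y axes, CPM of the summed UMIs) in 4 endothelial classes (x axes). Each point is the sum of 1 genotype in 1 replicate (blue control, red cKO, circle replicate 1, triangle replicate 2) and the bar is their mean. Non-cycling and cycling arterial sums overlap, and both lie above those of plexus and EHT cells, as with Gja5 at 943 to 1629 CPM against 98.8 to 447.

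Most chosen cells held UMIs of each marker. Vwf was found in 99.5% of the chosen cells, Tmem100 in 93.7%, Htra1 in 88.4%, Ltbp4 in 82.0% and Pi16 in 70.4%. The cells used as background were 664 with C1q genes and at most 70.7 CPM of Cdh5, which 11.9% of them held. They should hold little of the marker genes and were deeper, at a median of 58047 UMIs against 21772. Their shares were 9.79%, 2.71%, 0.753%, 1.66% and 2.26%. After thinning each cell to 6000 UMIs, which left out 5 chosen and 6 C1q cells, the chosen cells had 96.7%, 83.2%, 67.4%, 51.6% and 36.4%, and the C1q cells at most 1.98%. Other endothelial cells held these genes too. Before thinning, cycling arterial cells had Vwf in 98.8%, Tmem100 in 90.5% and Pi16 in 69.0%. Vwf was found in 94.2% of EHT and 72.9% of plexus cells, and Pi16 in 29.3% and 17.0%. After thinning these shares were 54.5% and 48.75% for Vwf, and 7.85% and 6.25% for Pi16.

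Of 20 genes of arterial identity, 11 lay above the plexus sums, 1 below and 8 overlapped, with a median log2 ratio of 0.68 beside 0.06 over all genes. Adgrg6, an adhesion G protein-coupled receptor, had 124, 82.1, 119 and 75.9 CPM and 5.27 to 10.6 in plexus cells. Hey2, a transcriptional repressor downstream of Notch, had 88.0, 58.6, 94.6 and 71.4 CPM and 6.65 to 13.8 in plexus cells. Jag1, a Notch ligand, had 105, 149, 147 and 163 CPM, a ratio of 2.17, and Bmx, an arterial tyrosine kinase, had a ratio of 1.99. None of these sums came near those of plexus cells. The Notch genes did not move as a block. Notch1 (0.36), Notch4 (0.72) and the ephrin ligand Efnb2 (0.81) were above, whereas the ligand Dll4 (0.48), the target Hey1 (0.35) and Gja4 (0.88), the other arterial connexin, overlapped with plexus cells. Sox17, the SoxF factor of arterial fate, had 261, 375, 242 and 424 CPM and 173 to 456 in plexus cells. Hes1, a further Notch target, was the only list gene below plexus cells, with 79.6, 83.7, 113 and 131 CPM against 155 to 363.

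Against EHT cells, 19 of the 20 arterial genes were higher, with a median log2 ratio of 2.35 beside 0.06 over all genes, and Hes1 overlapped. The ratio was 3.86 for Hey2, 3.54 for Adgrg6, 3.17 for Jag1 and 2.99 for Epas1, the hypoxia-inducible factor HIF-2 alpha. Gja4 had 1261, 1891, 1125 and 1909 CPM in the chosen and 146 to 499 in EHT cells. Against cycling arterial cells, 0 of the 20 genes were above or below, and the median ratio was 0.26 beside -0.01 over all genes. Overlap of the 4 sums thus did not set the chosen cells apart from cycling arterial cells by these genes. Genes that differed the same way within each genotype and pool were not counted.

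**Figure D2:**
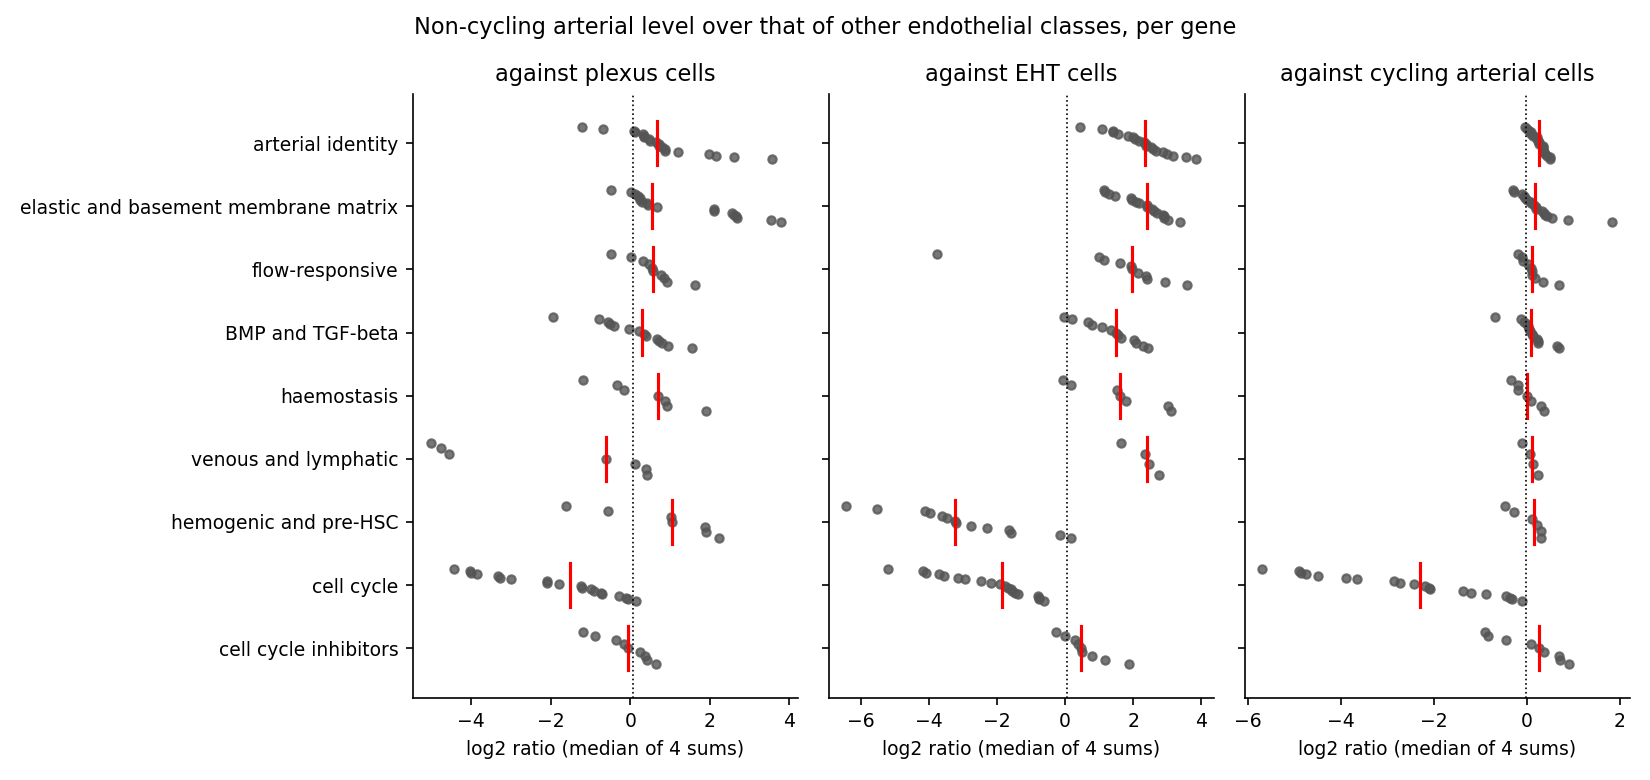
Log2 ratio of the level in non-cycling arterial cells to that in plexus, EHT and cycling arterial cells (x axes, median over the 4 sums of log2 of CPM with 1 added), for the genes of 9 lists (rows) with at least 10 CPM in a class compared. Each point is a gene, the red bar the median of the list and the dotted line the median of all genes. The arterial list has its median at 0.68, 2.35 and 0.26, and the cell cycle list at -1.52, -1.85 and -2.31. The cycling limit was not applied to plexus and EHT cells, so the cell cycle ratios follow from the rule.

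Genes of the vessel wall matrix followed. Of 18 genes of the elastic and basement membrane list with at least 10 CPM, 12 lay above the plexus sums and 0 below (median ratio 0.56). Elastic fiber genes had the largest ratios. Eln, which encodes elastin, had 46.8, 26.8, 14.0 and 60.7 CPM against 1.32 to 3.48 in plexus cells, a ratio of 3.78. Fbln5, which organizes elastin, had 20.6, 1.67, 6.20 and 44.0 CPM against 0 to 1.62, a ratio of 3.53 that rests on sums far from each other. Fbn1, the microfibril protein fibrillin, had 224, 142, 233 and 186 CPM against 11.7 to 36.6. Mgp (2.68), an inhibitor of vessel calcification, and Fbln2 (2.65), a further fibulin, were also above. The basement membrane genes Col4a1 (0.20), Lamc1 (0.23) and Sparc (0.12), the last a collagen-binding protein, overlapped with plexus cells. Against EHT cells 16 of the 18 genes were higher (median 2.40), with Bgn, a proteoglycan, at 3.03 and Col4a1 at 1317, 1470, 1319 and 1556 against 208 to 303 CPM. Ltbp1 (0.54) and the laminin chain Lama4 (0.43) were above the cycling arterial sums and the other 16 overlapped.

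Genes that respond to shear stress were higher than in plexus cells for 5 of 10 and lower for 0 (median 0.57). Edn1, the vasoconstrictor endothelin, had 542, 291, 540 and 499 CPM against 49.3 to 235. Nos3, the endothelial nitric oxide synthase, had 127, 100, 118 and 109 CPM against 48.8 to 67.7, and Thbd, the thrombin receptor thrombomodulin, had a ratio of 0.92. The flow-induced factors differed. Klf4 had 135, 71.2, 96.2 and 124 CPM and lay above plexus cells (48.6 to 70), whereas Klf2, with 768, 712, 430 and 1127 CPM, overlapped with them (312 to 721). Against EHT cells 9 of 11 were above, led by the caveolar protein Cav1 (3.59). Ptgs1, a prostaglandin synthase, was below (3.75, 4.19, 0 and 4.56 CPM against 40.9 to 78.4).

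BMP and TGF-beta genes went both ways against plexus cells, at counts near the 14.5% above and 12.8% below over all genes. Of 14 genes, 3 lay above the plexus sums (Smad6, 1.56, an inhibitory Smad, Bmpr2, 0.73, a BMP receptor, and Eng, 0.67, the co-receptor endoglin) and 3 below (the ligands Tgfb2, -1.95, and Bmp4, -0.79, and the receptor Tgfbr2, -0.42). Smad6 had 94.6, 112, 109 and 141 CPM against 15.4 to 47.9, and Tgfb2 had 12.2, 20.9, 15.5 and 9.87 against 42.5 to 67.8. The targets Id1, Id2 and Id3 overlapped with plexus cells. Against EHT cells 11 of 13 genes were above (median 1.49), including Acvrl1 (2.44), the receptor kinase mutated in hereditary telangiectasia. Of the hemostasis genes, Procr, the protein C receptor that also marks hemogenic cells, had 215, 210, 155 and 229 CPM against 26.9 to 88.3 in plexus cells, and the thrombin receptor F2r had a ratio of 0.88. The anticoagulant Tfpi was below (57.1, 58.6, 45 and 59.2 against 103 to 141), and 3 of the 7 genes overlapped.

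Of 7 venous and lymphatic genes, 3 lay below the plexus sums, 2 above and 2 overlapped, and of 9 plexus and tip genes, 3 lay below, 2 above and 4 overlapped. The 3 venous genes below were nearly missing from the chosen cells. Aplnr, the apelin receptor of venous and sprouting endothelium, had 0.936, 2.51, 0 and 1.52 CPM against 52.1 to 107 in plexus cells. Nr2f2, the factor that sets venous fate, had 0, 0.837, 0 and 0.759 CPM against 22.1 to 47.9. Nrp2, a receptor for VEGF-C and semaphorins, had 2.81, 6.70, 3.10 and 3.04 CPM against 72.3 to 142. None of the 3 came near its level in plexus cells. Among tip and capillary genes the hypoxia-induced regulator Rgcc was at 0 UMIs in the chosen cells and had 349 UMIs in plexus cells, at least 33.0-fold lower if 3 UMIs are allowed over the group. The apelin ligand Apln (-3.26) and the basement membrane protein Nid2 (-1.66) were also below. Plvap (0.70), the diaphragm protein of fenestrae, and Cd34 (0.65), a sialomucin of endothelium and progenitors, were above. Ephb4 (0.42), the receptor for Efnb2, and Dab2 (0.39), an endocytic adaptor, both of the venous list, lay above the plexus sums.

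The common endothelial program was present at high level. Of 20 pan-endothelial genes, 8 lay above plexus cells and 1 below (the guidance receptor Robo4, -0.76). Ramp2, which makes the adrenomedullin receptor, had 2815, 3729, 2538 and 3836 CPM against 866 to 1791. Tek, the angiopoietin receptor, had 274, 207, 245 and 217 CPM against 64.8 to 87.2. Against EHT cells 16 were above and 1 below. The latter was Tal1, a factor of blood and endothelium, with 37.5, 42.7, 43.4 and 38.7 CPM against 55.5 to 87.8. Erg, Fli1 and Lyl1, 3 further factors that blood and endothelium share, overlapped.

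Across all 20 sums of the 5 Cdh5 classes, the genes whose level ordered the sums most like Gja5 were the fibronectin receptor subunit Itga5 (Spearman's rho 0.95), the endothelin-converting enzyme Ece1 (0.947), the membrane traffic protein Ehd4 (0.946), the chromatin remodeler Chd3 (0.944) and Cdh5 itself (0.944), out of 5695 genes with at least 20 CPM on average. The sums share their libraries, and Gja5 and Cdh5 served in the rule.

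Several genes of no list had some of the largest ratios among genes with at least 50 CPM in a class. P4ha3, a collagen prolyl hydroxylase, had 77.7, 92.9, 43.4 and 89.6 CPM, with ratios of 3.82 to plexus and 3.90 to EHT cells. Isl1, a homeobox factor, had 67.4, 48.6, 69.8 and 91.1 CPM against 4.28 to 12.2 in plexus cells. Both overlapped with cycling arterial cells. The glutathione transferase Gsta4 (3.00) and, from the epithelial list, the keratin Krt18 (3.17) were above plexus cells, but Gsta4 overlapped with EHT cells and Krt18 lay below them. Against EHT cells the chemokine Cxcl12 had the largest ratio (4.64), with 34.6, 52.7, 68.3 and 55.4 CPM against 0 to 2.35, followed by the receptor Cd40 (3.97). The matricellular gene Sparcl1 (3.94) and the natriuretic peptide receptor Npr3 (3.54) were also among the 10 highest.

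Hemogenic genes were far below their level in EHT cells. Of 14 genes of the hemogenic and pre-HSC list, 0 lay above the EHT sums and 11 below (median -3.23). The ratio was -6.43 for Myb and -5.54 for Spi1, both factors of blood progenitors, -4.13 for Mycn and -3.99 for Ptprc, which encodes CD45. Ptprc had 0, 0, 0 and 1.52 CPM. Relative to plexus cells, however, 5 of 7 such genes were higher and 0 lower (median 1.05). Runx1, the factor required for EHT, had 23.4, 20.9, 29.5 and 9.87 CPM, against 2.93 to 6.81 in plexus and 166 to 279 in EHT cells. Its lowest sum, of cKO replicate 2, was still above every plexus sum. Ikzf2, an Ikaros family factor, had a ratio of 2.23 to plexus cells, Gata2 one of 1.05 and the adhesion receptor Adgrg1 one of 1.02. Procr and Gata2 overlapped with EHT cells. In summed level the 15 listed genes had 341 to 380 CPM, against 140 to 197 in plexus and 1367 to 1658 in EHT cells.

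Within the chosen cells these genes were unevenly spread. The rule admits a UMI of either Gfi1 or Neurl3, but not of both. In plexus cells, Neurl3 was found in 15.8% and Gfi1 in 0.304%. Neither was found in 125 of the chosen cells (66.1%), Neurl3 alone in 51 (27.0%) and Gfi1 alone in 13 (6.88%), at median depths of 20838, 22288 and 23607 UMIs. Runx1 was found in 8.0% of the first set (exact 95% interval 3.90 to 14.2), 29.4% of the second (17.5 to 43.8) and 61.5% of the third (31.6 to 86.1). In plexus cells, which should have little Runx1, the share was 11.6% at a median of 34369 UMIs, so the first set was at background. By replicate the shares were 7.27% and 8.57%, 39.1% and 21.4%, and 83.3% and 42.9%, the same order in both pools. Thinned to 6000 UMIs they were 4.13%, 14.0% and 46.2%, against 3.13% in plexus cells. Adgrg1 was found in 12%, 37.3% and 69.2%, with 25.2% in plexus cells, but in 4.13%, 10.0% and 7.69% after thinning, and the last share is 1 cell. Ikzf2 had shares of 19.2%, 37.3% and 53.8%, with 11.2% in plexus cells, and 7.44%, 18% and 15.4% after thinning, the last being 2 cells. The order of the last 2 sets was thus not kept for Adgrg1 and Ikzf2.

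Of the 10 listed genes found in at least 10 chosen cells, 8 had a larger share in cells with Neurl3 alone than in cells with neither gene, and 9 in cells with Gfi1 alone. Of all 10404 such genes, 65.8% and 62.2% did so, in sets that were deeper than the first. After thinning, 8 and 6 of 8 listed genes had the larger share, beside 50.0% and 48.3% of all 7928 genes. Spi1, for example, was found in 4.80%, 9.80% and 30.8% of the 3 sets, which are 6, 5 and 4 cells. After thinning these were 1, 1 and 2 cells (0.826%, 2% and 15.4%). Gata2 (60.8%, 60.8% and 69.2%) and Itga2b (12%, 9.80% and 7.69%), which encodes CD41, showed no such order. Ptprc was found in 2 cells and Myb in 3. Arterial genes differed among themselves. Tmem100 had 519 CPM in cells with neither gene, 367 with Neurl3 alone and 329 with Gfi1 alone, and Vwf had 844, 711 and 629 CPM. Gja5 was less spread, at 1180, 1097 and 1001 CPM, and Pi16 was lowest in cells with neither gene, at 95.7, 139 and 119 CPM. The share of cells with Tmem100 was 93.6%, 94.1% and 92.3%. Cells are not replicates of a condition, so no test was made, and the intervals cover counting error only.

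**Figure D3:**
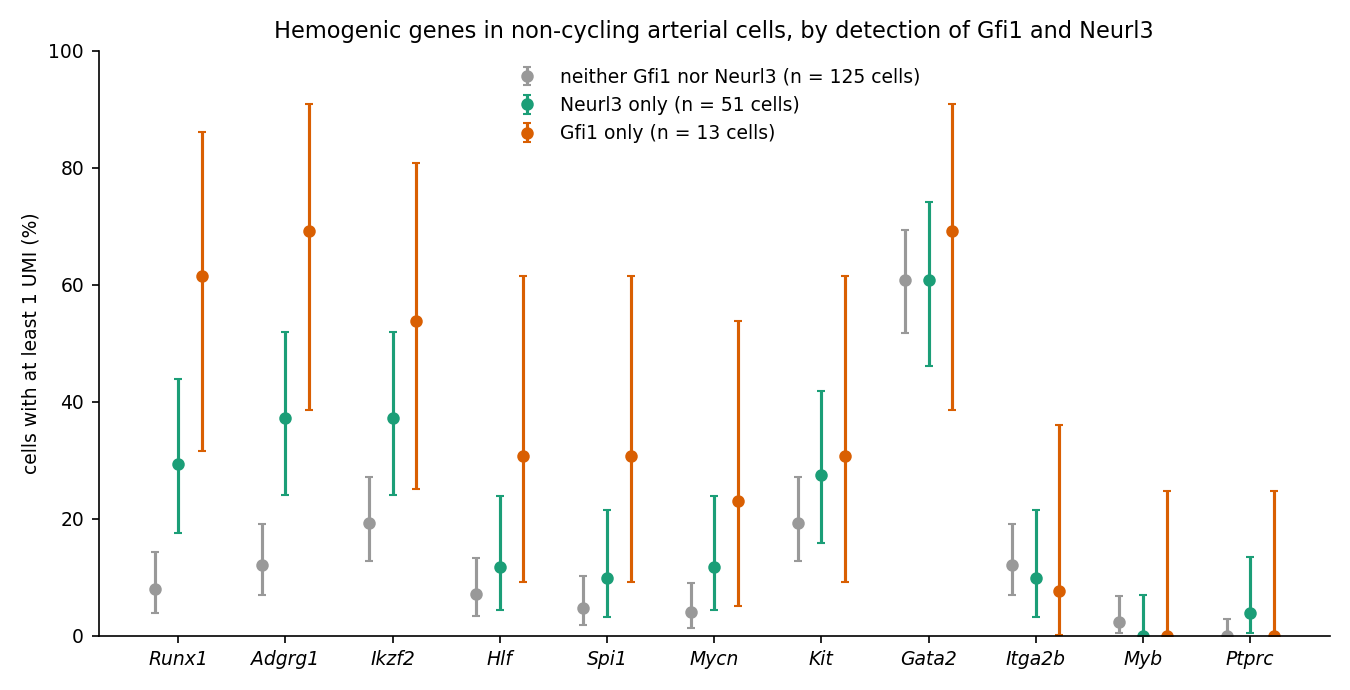
Share of non-cycling arterial cells with at least 1 UMI of 11 hemogenic and blood genes (y axis, percent), in cells with neither Gfi1 nor Neurl3 (grey, 125 cells), Neurl3 alone (green, 51) and Gfi1 alone (orange, 13). Points are shares and bars exact 95% binomial intervals, which cover counting error only. The share with Runx1 is 8.0%, 29.4% and 61.5% in the 3 sets, and that with Gata2 lies between 60.8% and 69.2%.

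The rule set these cells apart from cycling arterial cells by proliferation genes. Of 20 cell cycle genes that the rule did not use, 0 lay above and 16 below the cycling arterial sums (median -2.31). The mitotic kinase Aurkb had 3.75, 1.67, 0 and 0.759 CPM against 97.6 to 115, and the mitotic ubiquitin-conjugating enzyme Ube2c had 21.5, 20.9, 7.76 and 28.1 against 433 to 938. Genes of replication licensing were divided. Mcm2, Mcm3, Mcm4 and Mcm6, which encode helicase subunits, overlapped with cycling arterial cells, at ratios from -0.45 to -0.10. Within each genotype and pool, however, Mcm3 (-0.89 to -0.13) and Mcm6 (-0.74 to -0.30) were lower every time. Mcm5, Mcm7 and Cdc6 of the same list lay below, Cdc6 with 6.55, 2.51, 6.20 and 1.52 CPM against 13.2 to 30.3. Mcm2 and Mcm3 overlapped with EHT cells, against which 18 of 20 were below (median -1.85). Mcm3 was lower than in EHT cells within each genotype and pool (-1.46 to -0.43). Against plexus cells 12 were below (median -1.52). The cycling limit was not applied to EHT and plexus cells, which held cycling cells too. Their mean Top2a levels were 163 and 156 CPM, against 8.86 in the chosen cells. Both comparisons were thus set by the rule and cannot tell whether arterial cells cycle less.

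Of 9 genes that restrain the cycle, 2 lay above the cycling arterial sums, 1 below and 6 overlapped (median 0.26). Over all genes, 3.42% lay above and 8.25% below. All 9 overlapped with plexus cells (median -0.04). Cdkn1c, the imprinted inhibitor p57, had 1097, 1385, 929 and 943 CPM. It lay above cycling arterial (488 to 795) and EHT cells (695 to 884), but overlapped with plexus cells (780 to 1815). Gadd45b, a stress-induced growth arrest gene, was above both classes too (0.91 and 1.89). Cdkn1b, the inhibitor p27, lay below cycling arterial cells, with 23.4, 35.2, 21.7 and 19.7 CPM against 42.2 to 61.2. The highest ratio to cycling arterial cells among genes of at least 50 CPM was 1.55, for Mxd4, a Max-binding repressor that opposes Myc, with 85.2, 72.8, 45 and 70.6 CPM against 13.2 to 32.6. Hes6, a transcription factor (0.97), Ptdss2, a phosphatidylserine synthase (0.95), and Nit2, an amidase (0.93), were also above, whereas Dusp2 (1.21) and Egr1 (1.13) were higher in all 4 pairs but their sums overlapped. Of 12 immediate-early genes, Ier3 (0.63) and Zfp36 (1.25) were above and 10 overlapped.

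The genes with the most spread between cells beyond counting were not among the 6 markers. Over 2267 genes ranked by variance relative to the Poisson expectation, taking the lower value of both pools, the first were Rn45s, a ribosomal RNA gene, the nuclear RNA Malat1 and the imprinted RNA H19, followed by mitochondrial RNAs, Jun, Klf2 and Igf2. Klf2 was found in 164 of the 189 cells and ranged from 0 to 7179 CPM with a median of 406, and 32.2% of its UMIs lay in 10 cells. Across cells, Klf2 correlated with Klf4 (Spearman's rho 0.58) and with Fos (0.50), Fos with Jun (0.63), and Hspa1a with Hspa1b (0.68). These values are over 189 cells that share 2 libraries and differ in depth. Pairs of the 6 markers had rho between -0.09 and 0.29. Acta2, the smooth muscle actin, showed the strongest concentration. It had 44.0, 207, 144 and 61.5 CPM, was found in 46 cells and had 79.5% of its UMIs in 10 of them. A single cell of control replicate 2 held 104 of its 247 UMIs.

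Transcripts of macrophages and of granulocytes and monocytes were low, whereas those of mesenchymal and epithelial lists were above plexus cells. Summed over 8 macrophage genes the chosen cells had 12.2 to 28.9 CPM, with Adgre1 at 0, and over 7 granulocyte and monocyte genes 2.81 to 15.9 CPM, with Elane at 0. The 7 megakaryocyte genes summed to 31.0 to 104 CPM. Of these Pf4, platelet factor 4, had 3.75, 63.6, 6.20 and 79.0 CPM, high in replicate 2 of both genotypes, and the same split stood in plexus (4.29, 52.3, 3.96 and 60.9) and cycling arterial cells. Over 9 erythroid genes the sums were 42.1, 75.4, 7.76 and 16.7 CPM, with the adult globins at 0 and most UMIs from the embryonic globin Hbb-y. The 10 mesenchymal and muscle genes had 100 to 394 CPM, with Myog and Col1a1 at 0 and Acta2 and Tagln as main genes. Their sums were 41.7 to 85.7 CPM in plexus and 239 to 488 in EHT cells. The 5 epithelial genes had 51.6 to 107 CPM, nearly all from Krt18, with Cldn6 at 0, against 5.54 to 15.5 in plexus and 124 to 149 in EHT cells. Leaving out cells with 2 or more UMIs of the blood genes Ptprc, Mpo, Pf4 and Itga2b left the count of genes called between genotypes, given next, at 0. It moved the Gja5 ratio to EHT cells from 3.30 to 2.09. EHT cells with these genes were left out as well, and 37.7% of EHT cells held Ptprc. The change is thus not one of the chosen cells alone. The part of the erythroid, mesenchymal and epithelial transcripts was not tested.

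Both genotypes were compared within the chosen cells, which asks whether loss of Nupr1 changed arterial cells before EHT. By edgeR's quasi-likelihood test on the 4 sums, 0 of 8186 genes (0%) passed an adjusted p of 0.05, and 113 (1.38%) had a p under 0.05 before adjustment. With DESeq2 0 genes passed, and 14 were under 0.05 before adjustment. Leaving out 1 sum, with the lone sum assumed to vary like the others, gave 3 calls without control replicate 1 (Fbln5, Hbb-y and Spp1), 2 without control replicate 2 (Tagln and Tsix), 3 without cKO replicate 1 (Fbln5, Hbb-y and Pdlim3) and 10 without cKO replicate 2, among them Hbb-y, Xist and the Y-linked Ddx3y and Eif2s3y. Since both genotypes of a replicate shared a pool, the fit with the replicate as a block was also made. It called 7 genes (0.0855%), 3 higher and 4 lower in cKO cells. This fit can call a gene whose 2 pairs disagree, such as Sparcl1 and Xist below.

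Hbb-y had the smallest p-value of the unblocked fit, with a log2 fold change of -2.82 (SE 0.451, adjusted p = 0.0553 in edgeR) and of -2.94 (SE 0.359, adjusted p = 1.20e-12) with the block. Its levels were 35.6 and 72.8 CPM in control and 4.65 and 9.11 CPM in cKO cells. In plexus cells the control sums had 41.9 and 7.70 CPM and the cKO sums 18.7 and 18.6, so the genotypes overlapped there. Cdkn1c was lower in cKO cells in both pools, 929 against 1097 and 943 against 1385 CPM, a log2 fold change of -0.38 (SE 0.0891, adjusted p = 0.0245 in edgeR with the block, adjusted p = 1.00 without). Akap12, a scaffold protein for kinases, was higher, 129 against 85.2 and 107 against 46.9 CPM (log2 fold change 0.91, SE 0.198, adjusted p = 0.00741 in edgeR with the block, adjusted p = 1.00 without). Sparcl1 had 277 and 257 CPM in control and 278 and 538 in cKO cells, so only cKO replicate 2 was higher (log2 fold change 0.61, adjusted p = 0.00912 in edgeR with the block, adjusted p = 1.00 without). Rn45s (0.20) was called as well, and it had 2.10%, 1.33%, 2.50% and 1.43% of all UMIs.

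The other 2 called genes were Xist (-1.97, adjusted p = 2.61e-29 in edgeR with the block, the smallest of that fit) and its antisense partner Tsix (-3.15), which act in X inactivation in female cells. Xist had 451, 314, 0 and 189 CPM. It was found without chromosome Y transcripts in 48 of 54 and 48 of 48 control cells, in 0 of 30 cKO cells of replicate 1, of which 22 had Y transcripts, and in 29 of 57 cKO cells of replicate 2, of which 0 had Y transcripts. Sex and genotype cannot be told apart in replicate 1, where no cKO cell had Xist and no control cell had Y transcripts, and reads of Xist and Tsix cannot be told apart if the counting ignored strand.

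**Figure D4:**
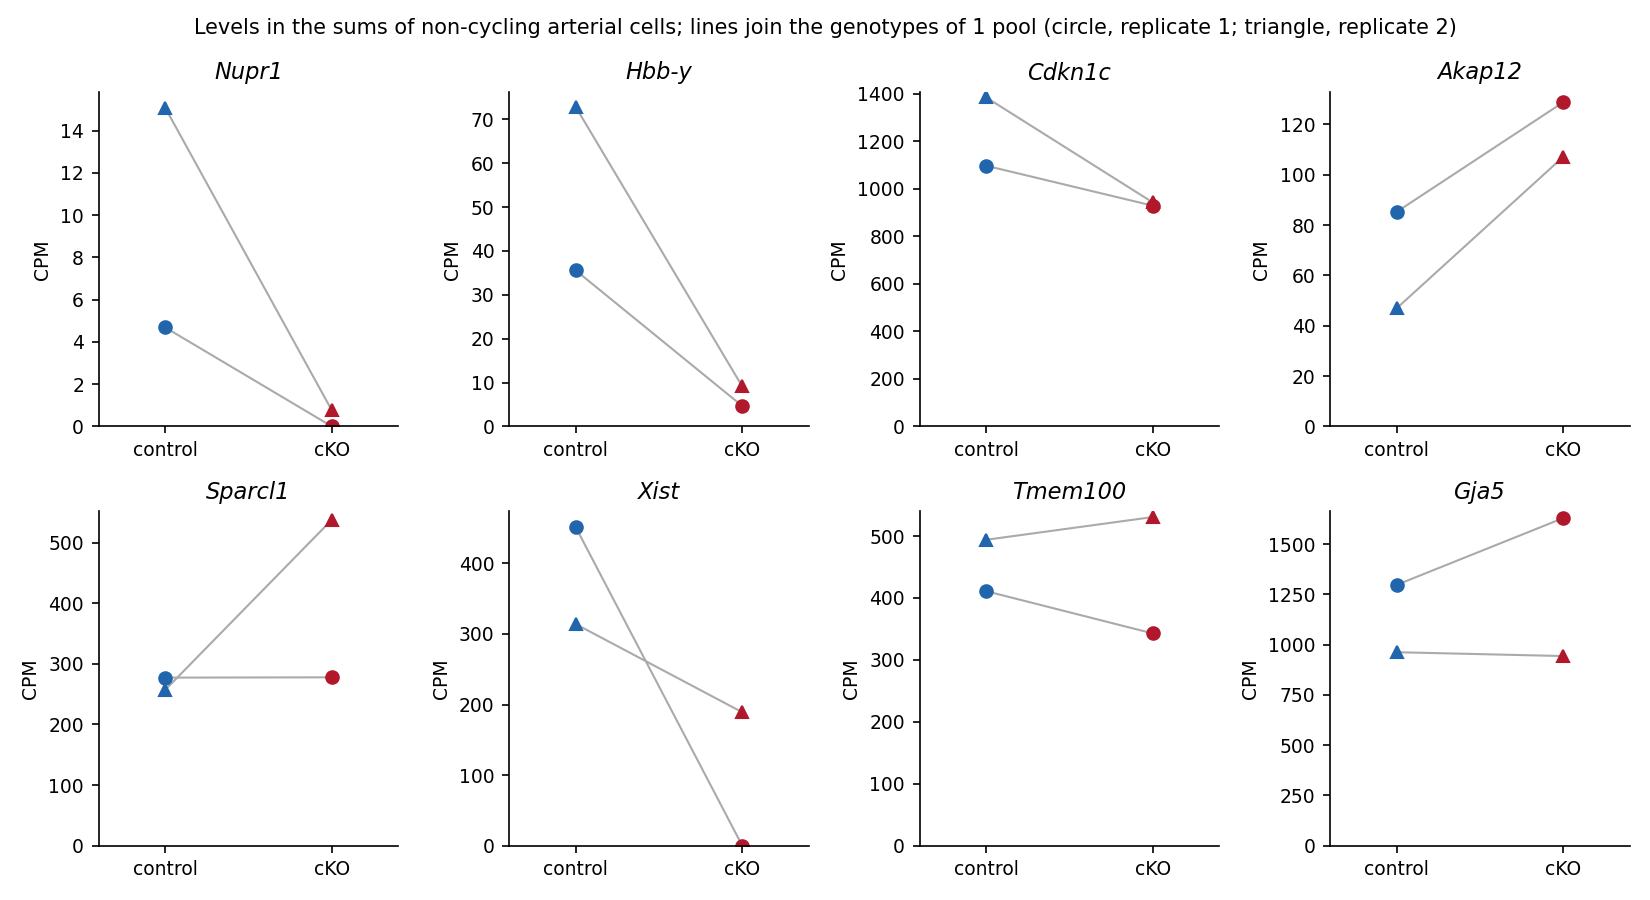
Level of 8 genes (y axes, CPM of the summed UMIs, from 0) in control (blue) and cKO (red) non-cycling arterial cells. Lines join the genotypes of 1 pool (circle replicate 1, triangle replicate 2), so that the slopes show the paired differences. Nupr1, Hbb-y, Cdkn1c and Xist are lower and Akap12 is higher in cKO cells of both pools, Sparcl1 is higher in replicate 2, and the lines of Tmem100 and of Gja5 go opposite ways in the pools.

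In each list described above, 0 genes were called higher and 0 lower without the block. The median log2 fold change was 0.11 for arterial identity (13 of 20 genes positive), 0.12 for flow-responsive genes (8 of 10), 0.16 for matrix (16 of 17) and 0.33 for immediate-early genes (11 of 12), beside 0.00 over all 8186 genes (4121 positive). It was -0.14 for the cell cycle (11 of 14 negative), -0.22 for caudal Hox genes (9 of 11 negative), -0.04 for the 6 hemogenic genes tested and 0.01 for TNF and NF-kB genes (4 of 8 positive). The markers Gja5 and Tmem100 had overlapping genotypes. Of the 10 genes with the smallest p-values of the unblocked fit, Hbb-y and Tsix passed with the block. The others passed in neither fit. They included Bace1, a membrane protease, with 25.3 and 25.1 CPM in control and 12.4 and 6.83 CPM in cKO cells (log2 fold change -1.47, adjusted p = 1.00 in edgeR).

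The share of non-cycling arterial cells among Cdh5 cells was 23.9% (exact 95% interval 18.5 to 30.0) and 27.0% (20.6 to 34.1) in control embryos. In cKO embryos it was 12.2% (8.42 to 17.0) and 31.0% (24.4 to 38.2). The lowest and the highest share were thus both in cKO embryos. The means were 25.4% ± 2.17 and 21.6% ± 13.2 (SD, n = 2), which is -3.82 percentage points for cKO minus control (p = 1.00, exact permutation test, two-sided). Replicate 1 gave -11.6 and replicate 2 gave 4.01. Among all cells the shares were 16.2%, 6.42%, 8.72% and 7.99%, a difference of -2.93 points (p = 1.00, exact permutation test), made up of -7.45 and 1.58 by replicate. The share of non-cycling cells among all arterial cells was 62.8% and 67.6% in control and 63.8% and 82.6% in cKO embryos. This difference of 8.02 points was positive in both replicates, 1.04 and 15.0 (exact permutation test, p = 0.667). With 2 values against 2 no p below 0.33 is possible, and all 3 adjusted p-values over the 3 denominators were 1.00 by this exact test. In replicate 1, 14 control and 6 cKO cells of the chosen ones were outside the limits on cells given in the methods, against 0 in replicate 2.

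**Figure D5:**
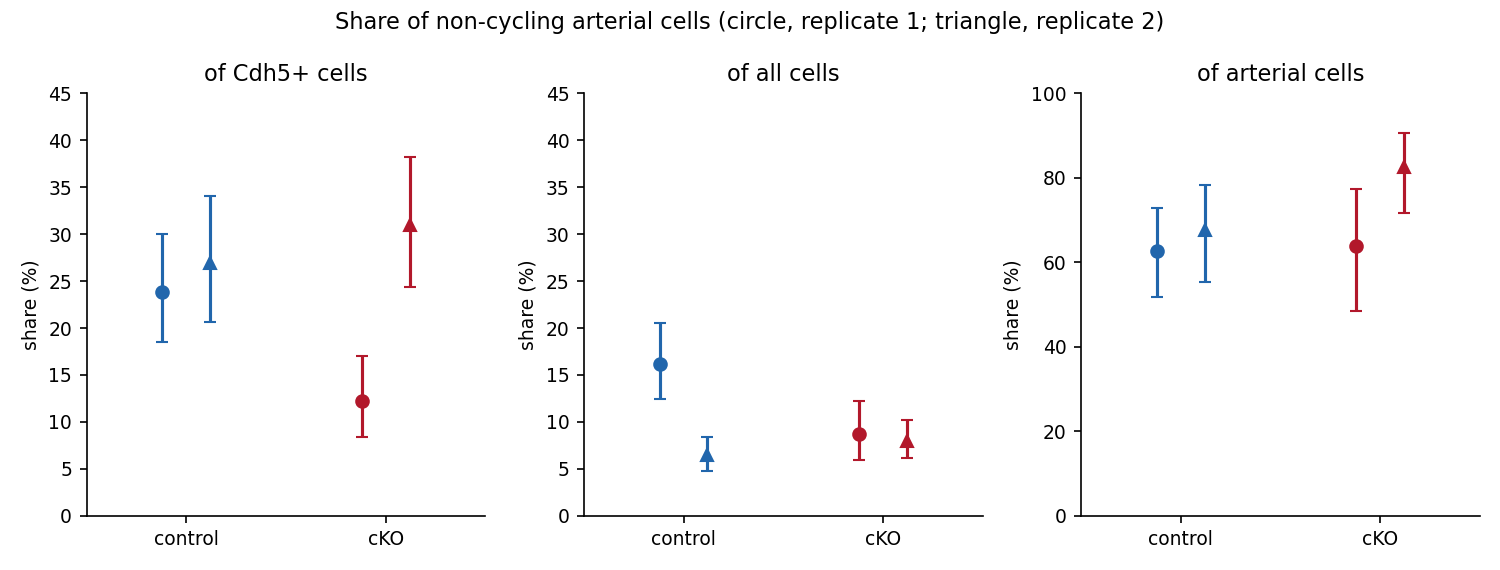
Share of non-cycling arterial cells (y axes, percent) among Cdh5 cells, all cells and all arterial cells, in control (blue) and cKO (red) embryos (circle replicate 1, triangle replicate 2). Bars are exact 95% binomial intervals, which cover counting error only. Among Cdh5 cells, cKO replicate 1 lies lowest at 12.2% and cKO replicate 2 highest at 31.0%.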

How the data were processed

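Single-cell RNA libraries (10x Chromium V3) of 2 pools of sorted CD31+CD44+ cells were aligned by the authors to mm10 with Cell Ranger 5.0.1, cells were assigned to genotype by hashtag, and only hashtag singlets were deposited. The gene annotation is not given in the sources used here. The deposited values are raw UMI counts per gene and cell, not normalized. All deposited cells were kept, and no doublet caller was run. The limits given in the methods (over 1800 genes, over 6000 UMIs, under 5% mitochondrial UMIs) were an alternative.

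UMIs were summed per class, genotype and replicate (644668 to 1317133 UMIs in the chosen cells), so cells were not treated as replicates. P-values without the block measure the spread between these sums, and the number of embryos behind each is not given in the sources used here. With the block the SE can stay small where the 2 pairs of a gene disagree. For Xist, at 451 to 0 and 314 to 189 CPM, it was 0.163 with the block and 1.75 without. The p-values of the block fit thus do not show that the pairs agree. Genotypes were compared with edgeR 4.0.16 (quasi-likelihood, TMM, low-count filter, Benjamini-Hochberg) under R 4.3.3, and with DESeq2 1.42.0. Shares were compared by exact permutation tests and their intervals are exact Clopper-Pearson intervals at 95% (scipy 1.17.1). Both genotypes of a replicate number shared a pool, and their deviations correlated (r = 0.346 over 8186 genes), so the fit with the replicate as a block was also made. Scripts were tested on simulated data.

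Named genes are those of the rule, Pi16, Vwf, Nupr1, up to 4 list members with the largest ratios, the 10 highest and lowest genes per class with at least 50 CPM, the 10 smallest adjusted p-values and the 5 genes most like Gja5. Other named genes were chosen after their values were seen. Some genes that this rule names are not reported here. The members and all lists were chosen with earlier results of these data known. Sequences and positions come from RefSeq on GRCm38.p6, which has the chromosomes of mm10. Alternatives changed the limits on cells, Gja5 and cycling genes, left out cells with UMIs of Gfi1 or Neurl3 or with 2 or more UMIs of blood genes, and changed the normalization, the filter and the scale of levels.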

Additional observations from a re-analysis of the deposited data

How the results depend on the processing

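The count of genes called between genotypes, 0, became 7 with the replicate block, 3 without the low-count filter (Cdk5rap1, Hbb-y and Tsix), 1 with Gja5 of at least 100 CPM and 1 with at least 400 CPM (Hbb-y in both), and 2 to 10 when 1 sum was left out. It stayed at 0 with DESeq2, RLE normalization, the limits on cells of the methods, cycling genes under 100 CPM, cells without Gfi1 and Neurl3, and cells without blood genes. The cause was not tested. The log2 fold change of Nupr1 was negative in all 13 alternatives. It passed the threshold with the block only (-4.21, adjusted p = 0.0254 in edgeR), ranged from -6.31 to -2.90 when 1 sum was left out, and from -5.88 to -1.56 otherwise, with adjusted p-values of the unpaired fits from 0.17 to 1.00. The block changed no other named call than those of the 7 genes and Nupr1.

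Leaving out 1 sum moved the difference in share among Cdh5 cells from -13.2 to 5.55 percentage points, positive without cKO replicate 1. Among all cells it moved from -7.81 to 1.94, positive without control replicate 1. Among arterial cells it moved from -1.37 to 17.4, negative without cKO replicate 2. Each then compares 1 value with 2, with no test. Other alternatives kept the directions, from -4.69 to -1.90, -3.63 to -1.51 and 7.85 to 11.9 points, and the mean of the differences within replicates, the block, was -3.82, -2.93 and 8.02. All 60 alternative values of the marker ratios to plexus and EHT cells kept their direction (0.80 to 5.08 on the log2 scale), and 11 moved by more than 1 SD between sums. Without cells with blood genes, left out of every class, the ratio to EHT cells fell to 2.09 for Gja5 and 1.63 for Vwf. That to plexus cells fell to 3.05 for Htra1. With the mean of CPM per cell the ratio to plexus cells was 0.80 for Gja5, 2.03 for Ltbp4, 2.59 for Pi16 and 1.72 for Vwf. Depth limits genes below about 10 CPM, which are a few UMIs in each sum.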

Other observations

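The imprinted genes Igf2 and H19 were higher in arterial than in plexus and EHT cells. Igf2, an embryonic growth factor, had 2764, 3718, 2783 and 4893 CPM in the 4 sums of non-cycling arterial cells, above the plexus (856 to 2093) and EHT sums (967 to 1713). H19, its noncoding neighbor, had 4979, 3630, 4452 and 3864 CPM, above 1604 to 2050 and 1038 to 1422. Both overlapped with cycling arterial cells. Of 10 caudal Hox genes, which record position along the body axis, 4 lay above the EHT sums, 1 below and 5 overlapped, beside 24.1% above and 20.3% below over all genes. Hoxd8 had 23.4, 22.6, 20.2 and 21.3 CPM against 2.31 to 3.76, and Hoxa9 had 60.9, 111, 41.9 and 57.7 CPM against 138 to 164. All 11 overlapped with plexus and with cycling arterial cells. Of 8 genes of TNF and NF-kB signaling, the adaptor Traf2 lay below the plexus sums, with 14.0, 14.2, 10.9 and 14.4 CPM against 15.4 to 22.5, and the other 7 overlapped. This count is near the share over all genes, of which 12.8% lay below.

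The 2 pools differed within the chosen cells. Of 7680 genes with at least 10 CPM, 35 were higher and 61 lower in replicate 2 by over 1 on the log2 scale in both genotypes. The heat shock gene Hspa1a had 87.1 and 138 CPM in replicate 1 and 537 and 618 in replicate 2, and the class I gene H2-K1 had 40.3 and 20.2 against 126 and 134. Egr1, an immediate-early factor, went the other way, with 93.6 and 160 against 17.6 and 35.7 CPM, as did the mitochondrial mt-Atp8, with 180 and 96.2 against 29.3 and 22.8. Median mitochondrial shares were 3.44% and 2.89% in replicate 1 and 1.87% and 1.65% in replicate 2.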
